A study of Mus musculus with 6 samples.

Results

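Ly6c1, Ly6c2, Ly6a, Ly6e, Ly6i, Ly6g and Ly6d are 7 genes of the Ly6 cluster on mouse chromosome 15, taken by symbol from the 56980 genes of a deposited raw count table. The study compared 6 libraries of total RNA, all from wild-type monocytes sorted as CD11b+ Ly6Chi Ly6G- from B16F10 melanoma tumours. Of these, 3 came from tumours given lipid nanoparticles that carried mRNA for green fluorescent protein (LNP-GFP), and 3 from tumours given nanoparticles with mRNA for gasdermin E, a pore-forming protein of lytic cell death (LNP-Gsdme). Dose, time after injection and the age of the mice were not given in the sources used here. The labels do not say whether each library came from its own animal, so p-values reflect the spread of these samples alone and that spread may be technical. The 7 genes were chosen because their levels in these same libraries were already known to differ between the groups. Their own comparison is therefore given as values with no test, and the tests concern genes chosen by position or by list. The genes lie between positions 74633905 and 75030975 (GRCm39), a span of 397 kb.

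Ly6 proteins are small, cysteine-rich proteins of the three-finger fold, most of them held on the outer cell membrane by a glycosylphosphatidylinositol (GPI) anchor. Mouse Ly6c1 and Ly6c2 are close copies that encode the Ly6C antigen, which is high on inflammatory monocytes and falls as these cells turn into patrolling monocytes or macrophages. Ly6g encodes the neutrophil antigen Ly6G, and Ly6a encodes Sca-1, a marker of blood stem cells that is also found on activated lymphocytes and endothelial cells and responds to interferon. Ly6e is broadly expressed and interferon-induced, Ly6i is a relative of Ly6c, and Ly6d marks early B-lineage progenitors and squamous epithelium. Ly6C and Ly6G proteins were part of the sort, so cells of both groups had already been selected on the products of 3 of the genes.

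The start regions of Ly6c2, its neighbour Ly6a2 and Ly6c1 are shown because these genes lie close together and all had higher counts after LNP-Gsdme. The sequences are RefSeq's, 250 bases before to 50 after each gene's start, in build GRCm38.p6, whose coordinates differ from those of the counted genes. All 3 are on the minus strand, at chr15:75111922-75112221 for Ly6c2, chr15:75135079-75135378 for Ly6a2 and chr15:75048788-75049087 for Ly6c1. The table held 3 of the 7 genes, Ly6c1, Ly6c2 and Ly6g. Capitals mark the letters GAGGAAGT, a sequence bound by the myeloid factor PU.1, in Ly6c2, and the letters aligned to them in Ly6a2.
Ly6c2: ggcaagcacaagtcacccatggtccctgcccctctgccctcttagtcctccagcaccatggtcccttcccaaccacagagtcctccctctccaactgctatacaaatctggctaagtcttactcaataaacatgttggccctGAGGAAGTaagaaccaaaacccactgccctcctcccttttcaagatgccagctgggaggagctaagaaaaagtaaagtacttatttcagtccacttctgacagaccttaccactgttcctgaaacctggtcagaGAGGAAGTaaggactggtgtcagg
Ly6a2: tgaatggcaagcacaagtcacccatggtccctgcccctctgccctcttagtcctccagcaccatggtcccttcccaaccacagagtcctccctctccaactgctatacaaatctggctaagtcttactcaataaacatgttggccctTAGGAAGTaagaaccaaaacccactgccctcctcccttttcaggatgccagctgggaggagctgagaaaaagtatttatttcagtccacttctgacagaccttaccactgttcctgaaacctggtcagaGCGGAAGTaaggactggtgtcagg
Ly6c1: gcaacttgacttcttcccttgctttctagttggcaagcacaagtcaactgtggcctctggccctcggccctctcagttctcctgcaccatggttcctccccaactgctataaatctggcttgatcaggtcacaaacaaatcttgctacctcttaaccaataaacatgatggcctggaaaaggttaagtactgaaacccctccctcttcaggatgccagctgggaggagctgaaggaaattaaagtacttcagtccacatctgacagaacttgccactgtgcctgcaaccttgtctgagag

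The start regions of Ly6c2 and Ly6a2 were 95.4% identical over 305 aligned columns, against 62.9% for Ly6c2 and Ly6c1 and 49.2% for Ly6c2 and Ly6g. GAGGAAGT occurred in the Ly6c2 window 2 times, from positions -108 and 27 relative to the start. The aligned letters of Ly6a2 differed by G1T at the first place and by A2C at the second, counted from 1 at the first base of the match, with the Ly6c2 base given first. Both Ly6a2 stretches keep the letters GGAAGT, and a difference in PU.1 binding was not tested. The Ly6c1 window shown has no match and the Ly6g window has 1. Ly6c1, Ly6c2 and Ly6g have 2 starts each in the table, of which the first listed was used, and the window of the second Ly6c1 start has 1 match. GAGGAAGT was present, on either strand, in 3.20% of 32851 mouse promoters of the same length. The interferon-stimulated response element core, here GAAA followed by any 2 bases and GAAA again (3.44% of promoters) and the gamma-activated site core TTCNNNGAA (8.30%) were searched on both strands and had no match in the windows of Ly6c1, Ly6c2, Ly6a2 and Ly6g. The C/EBP core TTGCNNAA (10.8%) matched only the Ly6g window, 1 time. A match describes letters in this window, not binding.

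The LNP-GFP libraries held 20233559 to 22932095 counts and the LNP-Gsdme libraries 15991826 to 18751784, so 3 counts stood for 0.131 to 0.187 CPM (counts scaled to library size, with TMM factors that balance library composition). Of the 7 genes, 6 passed the filter on low counts and Ly6g did not. One library had an unusual profile: LNP-GFP 3 lay close to a weighted mean of LNP-GFP 1 (weight 0.479) and LNP-GFP 2. Its median squared deviation from that mean was 1.96 times counting noise over 11025 genes with at least 100 expected counts, against 3.39 to 7.74 times for the other 5 libraries predicted from their own groups. The fitted weights of those 5 lay almost wholly on 1 library. For LNP-GFP 1 and 2 this was LNP-GFP 3 (weight of the other library 0), and for LNP-Gsdme the larger weight was 0.929 to 0.993. A library between the others of its group is predicted best by construction, so the contrast is a description only. Among the Ly6 genes, Ly6c2 had 4228 counts in LNP-GFP 3 where the weighted mean gave 5247, Ly6c1 had 770 where it gave 969.9, and Ly6a had 3067 where it gave 3374. Ly6e, Ly6i, Ly6g and Ly6d were nearer to it, at -2.70 to -0.20 counting SD. The labels list LNP-GFP 3 as a sample of its own. If it were not independent of the other LNP-GFP libraries, the SD, SE and p-values given here would understate the spread, which was not tested.

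Ly6c2 (chromosome 15, 74980007 to 74983819) differed most between the groups among the 7 genes. In replicates 1 to 3 it reached 257, 267 and 211 CPM after LNP-GFP, against 1374, 1856 and 1400.4 CPM after LNP-Gsdme. All LNP-Gsdme libraries were above all LNP-GFP libraries, and the lowest LNP-Gsdme library was far above the highest LNP-GFP library. The mean was 245 ± 29.7 CPM against 1543 ± 271 CPM (SD, n = 3 per group), a 6.30-fold difference and a log2 fold change of 2.66 ± 0.16 (SE). This log2 fold change was the 24th highest of 16010 genes tested. In these bulk samples, a different number of cells with a transcript and a different amount of it per cell cannot be told apart.

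Ly6c1 (74915867 to 74920679), the second Ly6C gene, had lower counts than Ly6c2 in every library. It reached 54.2, 43.1 and 38.5 CPM in LNP-GFP and 205, 123 and 149.7 CPM in LNP-Gsdme, again without overlap between the groups. The mean was 45.3 ± 8.09 CPM against 159 ± 41.8 CPM (SD, n = 3), with a log2 fold change of 1.81 ± 0.22 (SE). The order within LNP-Gsdme was not shared by the pair of copies: replicate 2 was highest for Ly6c2 and lowest for Ly6c1.

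**Figure D1:**
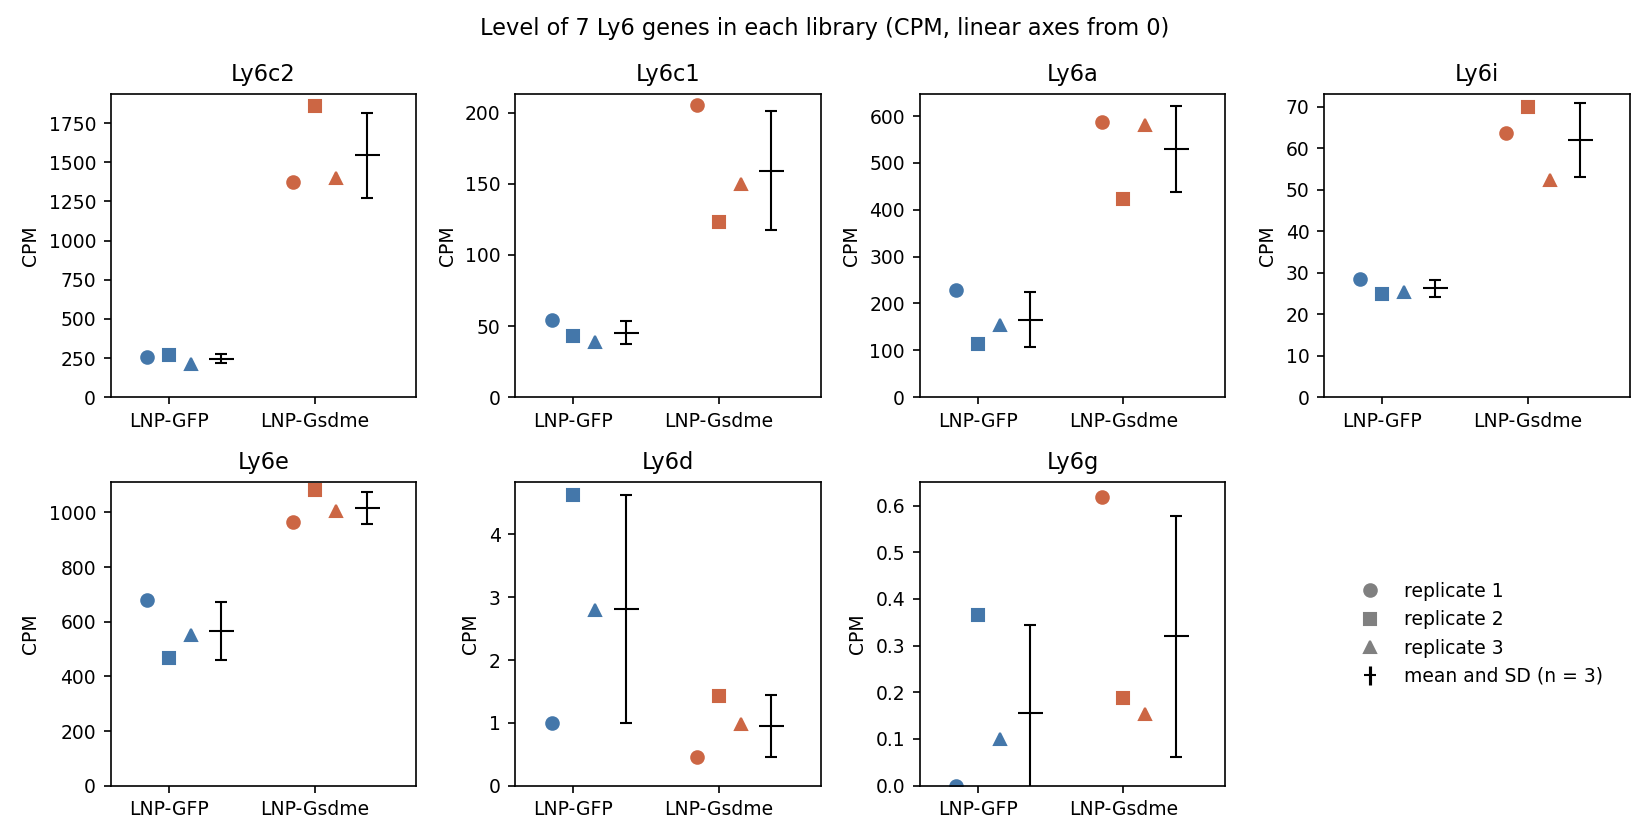
CPM of each of the 7 Ly6 genes (vertical axis, linear from 0, its own scale for each gene) in LNP-GFP (blue) and LNP-Gsdme (orange) libraries, with marker shape giving the replicate and the bar the mean and SD of 3 libraries. Ly6c2, Ly6c1, Ly6a, Ly6i and Ly6e have no overlap between the groups, while Ly6d and Ly6g overlap.

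The balance between the 2 Ly6C genes was measured as the share of Ly6c2 in their summed counts. It was 82.6% (exact 95% binomial interval 81.7 to 83.5), 86.1% (85.2 to 86.9) and 84.6% (83.6 to 85.6) for LNP-GFP replicates 1 to 3. The LNP-Gsdme libraries had 87.0% (86.6 to 87.4), 93.8% (93.5 to 94.0) and 90.3% (90.0 to 90.7). The groups did not overlap, but the lowest LNP-Gsdme library and the highest LNP-GFP library were close, with overlapping intervals. The mean was 84.4 ± 1.76% against 90.4 ± 3.38% (SD, n = 3), a difference of 5.96 percentage points. The intervals cover counting error only.

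How the authors treated reads that fit several genes was not given in the sources used here, so the split between the copies is uncertain. The main Ly6c1 and Ly6c2 transcripts of GENCODE M21 were identical at 802 of 844 aligned columns, or 95.02%. Transcripts annotated as retained introns were left out of each gene's stretches. Of the remaining distinct stretches of 50 bases in Ly6c2 transcripts, 31.2% also occurred in another gene, almost all in Ly6c1. At 100 bases this was 14.9% and at 150 bases 5.44%. For Ly6c1 the shares were 32.8%, 10.1% and 2.29%, and for Ly6a they were 19.0%, 1.45% and 0%, mostly through Ly6c1. Ly6i shared 4.76% of its 50-base stretches and Ly6g 0.448%, while Ly6e and Ly6d shared none. With the counts of Ly6c1 and Ly6c2 summed as 1 gene, the log2 fold change was 2.55, against 2.66 for Ly6c2 and 1.81 for Ly6c1 alone.

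**Figure D2:**
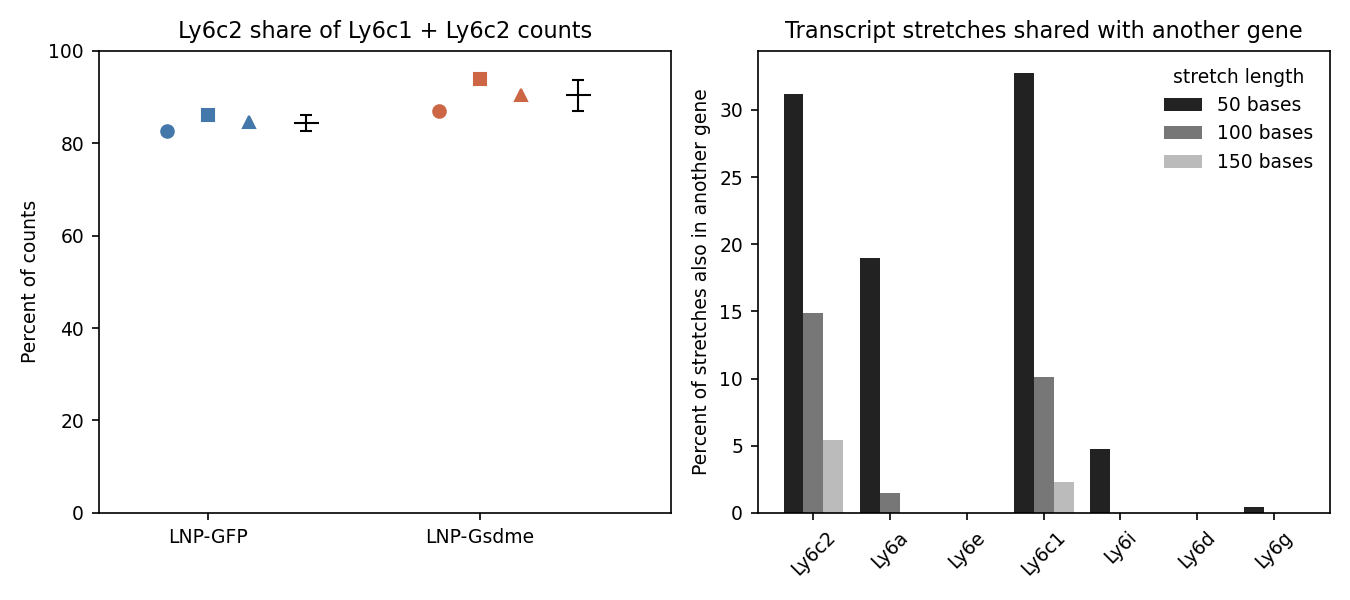
Left, Ly6c2 share of the summed Ly6c1 and Ly6c2 counts in percent for each library, with mean and SD of 3 libraries per group. Right, percent of distinct 50, 100 and 150 base stretches of each gene's GENCODE M21 transcripts (retained introns left out) that also occur in another gene. This percent is highest for Ly6c1 and Ly6c2 and 0 for Ly6e and Ly6d.

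Ly6a, encoding Sca-1 (74866726 to 74869880), reached 229, 113 and 153 CPM in LNP-GFP and 586, 423 and 579.8 CPM in LNP-Gsdme. The groups did not overlap, although LNP-GFP 1 was well above the other LNP-GFP libraries. The mean was 165 ± 58.6 CPM against 529.6 ± 92.7 CPM (SD, n = 3), and the log2 fold change was 1.68 ± 0.27 (SE). Ly6i (74851383 to 74855279) was the most even of the genes within LNP-GFP, at 28.6, 24.8 and 25.3 CPM, and reached 63.6, 69.9 and 52.3 CPM in LNP-Gsdme. Its mean was 26.2 ± 2.06 CPM against 61.9 ± 8.93 CPM (SD, n = 3), with a log2 fold change of 1.24 ± 0.13 (SE).

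Ly6e (74826900 to 74831752) had the highest CPM of the 7 genes in each LNP-GFP library and differed least among those that did not overlap. It reached 678, 469 and 552 CPM in LNP-GFP and 965, 1080.1 and 1004 CPM in LNP-Gsdme. The mean was 566 ± 105 CPM against 1017 ± 58.4 CPM (SD, n = 3), a 1.80-fold difference with a log2 fold change of 0.84 ± 0.14 (SE). Ly6e thus combined the highest starting level in CPM with the smallest fold of these 5 genes.

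Ly6d (74633905 to 74635469), at the far end of the cluster, was the 1 tested gene of the 7 with a lower mean in LNP-Gsdme. It had 23, 101 and 56 counts in LNP-GFP, or 1.003, 4.63 and 2.80 CPM, and 8, 23 and 19 counts in LNP-Gsdme, or 0.449, 1.43 and 0.979 CPM. The groups overlapped, because LNP-GFP 1 was below LNP-Gsdme 2. The log2 fold change was -1.56 ± 0.63 (SE), with means of 2.81 ± 1.81 CPM and 0.954 ± 0.493 CPM (SD, n = 3).

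Ly6g (75027089 to 75030975), whose protein was used to exclude neutrophils, was near 0 in every library. It had 0, 8 and 2 counts in LNP-GFP and 11, 3 and 3 in LNP-Gsdme, or 0 to 0.366 CPM and 0.155 to 0.618 CPM. No fold is given at these counts, and a difference was not detectable at this depth. The summed CPM of 12 other neutrophil markers was 199.6 to 503 for LNP-GFP and 267 to 489 for LNP-Gsdme, and none of the 12 passed the edgeR test (unadjusted p below 0.05 for 1 higher and 1 lower; DESeq2 called 0 higher and 1 lower).

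Of the 6 Ly6 genes that passed the filter, 5 were higher in LNP-Gsdme without overlap, where 19.6% of all tested genes were. The genes were chosen on this contrast, so nothing is read from this count. The median log2 fold change of the 6 was 1.46, beside -0.01 over all tested genes. Without LNP-GFP 3, the log2 fold changes were 2.56 for Ly6c2, 1.72 for Ly6c1, 1.64 for Ly6a, 1.22 for Ly6i, 0.83 for Ly6e and -1.55 for Ly6d. With each library left out in turn, they stayed between 2.50 and 2.74 for Ly6c2, 1.59 and 1.97 for Ly6c1, and 1.48 and 2.003 for Ly6a.

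Levels can be compared between genes only per length, and the deposited FPKM (fragments scaled by gene length and library depth) depended on the length the authors used. The length implied by FPKM and counts equalled the summed length of all distinct annotated exons for 6 of the 7 genes. For Ly6e it was 8138 bases, longer than the gene's own span of 4853 bases. Ly6c2 had an implied length of 4361 bases, where its longest coding transcript has 822. Implied lengths exceeded the gene span for 3 of the 7 genes and for 6.98% of 29177 genes. Genes with many annotated transcripts therefore have lower FPKM than their transcript lengths would give. Levels were recomputed as CPM per kilobase of the longest coding transcript, with lengths from GENCODE M21.

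In LNP-GFP, levels per kilobase of coding transcript were highest for Ly6c2 at 298 ± 36.1, Ly6e at 248 ± 46.1 and Ly6a at 173 ± 61.3 (SD, n = 3). Each of these overlapped the next in range. Ly6c1 at 53.6 ± 9.58, Ly6i at 22.7 ± 1.78 and Ly6d at 3.78 ± 2.43 followed, each apart from its neighbours in the order, with Ly6g last. In LNP-Gsdme, Ly6c2 stood apart at 1878 ± 330 (SD, n = 3). Ly6a at 555 ± 97.0 and Ly6e at 446 ± 25.6 overlapped, and Ly6c1 at 189 ± 49.5 and Ly6i at 53.6 ± 7.72 were each apart from their neighbours. Ly6c2 held 33.3, 44.6 and 35.2% of the summed level of the 7 genes in the LNP-GFP libraries, against 55.6, 66.8 and 57.3% in the LNP-Gsdme libraries.

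The order in LNP-GFP depended on the length used. With deposited FPKM, Ly6e had the highest mean in LNP-GFP at 68.9, followed by Ly6c2 at 55.6 and Ly6a at 47.4, again with overlapping ranges. With the merged length of all exons, the means were 149.6 CPM per kilobase for Ly6e, 137 for Ly6a and 89.4 for Ly6c2. In LNP-Gsdme, Ly6c2 came first with each length, at 357 FPKM or 563 CPM per kilobase of merged exons. By FPKM, Ly6c2 ranked 884th, 903rd and 1069th of all genes in the LNP-GFP libraries, against 147th, 103rd and 139th in the LNP-Gsdme libraries.

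**Figure D3:**
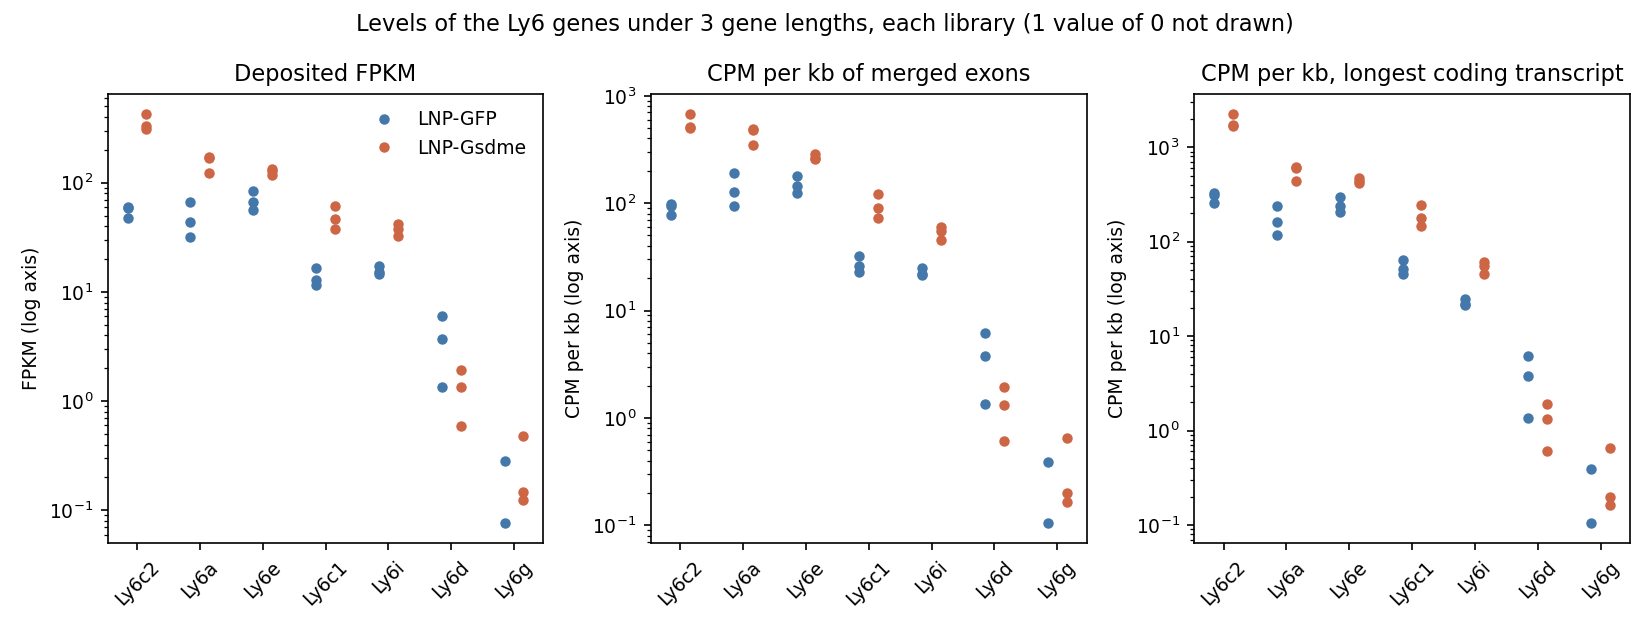
Level of each Ly6 gene in each library on a log axis, as deposited FPKM (left), CPM per kilobase of merged exons (middle) and CPM per kilobase of the longest coding transcript (right), with LNP-GFP in blue and LNP-Gsdme in orange; 1 value of 0, for Ly6g, is not drawn. Ly6c2 has the highest LNP-Gsdme points with each length, while its place in LNP-GFP changes with the length.

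The neighbours of Ly6c2 on chromosome 15 were chosen by position alone, as the other genes within 1 Mb. Of 85 such genes, 26 passed the low-count filter, 5 rose and none fell (edgeR adjusted p below 0.05), with a median log2 fold change of 0.04. Over all tested genes, 6.30% rose, 5.32% fell and 11.6% did either, and the difference between these shares and those of the neighbours was not tested. At an unadjusted p below 0.05, 8 neighbours were higher and 2 lower. DESeq2 called 6 higher and 1 lower, where it called 9.54% and 9.33% of all genes. Without LNP-GFP 3, 1 neighbour rose, Adgrb1, and none fell, where 0.395% of all genes rose and 0.148% fell. Of the 59 neighbours that did not pass the filter, 36 had no count and the highest count was 13.

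The neighbours inside the cluster that rose are Ly6 sequences too. Ly6a2, annotated as a long noncoding RNA (75002080 to 75006984), lies 18.3 kb from Ly6c2 and reached 18.0, 23.1 and 25.8 CPM in LNP-GFP and 104, 52.0 and 65.7 CPM in LNP-Gsdme. The groups were apart, with a log2 fold change of 1.73 ± 0.28 (SE; edgeR adjusted p = 0.0196, between 4.19e-08 and 0.0869 over the alternatives). Of the fits that left out a library, only the one without LNP-GFP 3 lost this call. Gm5960, an unprocessed pseudogene between Ly6c1 and Ly6c2 (74942961 to 74946487), had 7, 15 and 7 counts in LNP-GFP and 129, 134 and 60 in LNP-Gsdme. Its log2 fold change was 3.78 ± 0.50 (SE; edgeR adjusted p = 0.0126, between 1.73e-10 and 0.0800), and the call was lost without LNP-GFP 3, LNP-Gsdme 1 or LNP-Gsdme 2. In transcripts, Ly6a2 shared 9.58% of its 50-base stretches with other genes and none of 100 bases. With Ly6a2 added to the Ly6c2 counts, an alternative chosen after seeing the data, the log2 fold change of Ly6c2 was 2.60. The third tested gene inside the cluster, the noncoding Gm39556, had a log2 fold change of 0.81 (edgeR adjusted p = 0.121).

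Outside the cluster, the largest rise was that of Adgrb1 (74388044 to 74461314), an adhesion receptor that binds apoptotic cells, 519 kb from Ly6c2. It had 2, 5 and 5 counts in LNP-GFP and 121, 78 and 60 in LNP-Gsdme, so it went from near 0 to a low level. The log2 fold change was 4.68 ± 0.47 (SE; edgeR adjusted p = 0.00596), and the call held under every alternative run (adjusted p 3.00e-13 to 0.0482). Gsdmd (75734176 to 75739257) encodes gasdermin D, the pore-forming relative of gasdermin E that inflammasome caspases cleave. It reached 93.8, 77.4 and 85.5 CPM in LNP-GFP and 144, 146.6 and 128 CPM in LNP-Gsdme, a log2 fold change of 0.71 ± 0.10 (SE; edgeR adjusted p = 0.0132, between 3.51e-07 and 0.0817). Of the fits that left out a library, those without LNP-GFP 3, LNP-Gsdme 1 or LNP-Gsdme 2 lost this call. Gfus, encoding GDP-L-fucose synthase, rose with a log2 fold change of 0.31 ± 0.08 (SE; edgeR adjusted p = 0.0485), a call lost under 10 alternatives.

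The tested genes that flank the cluster most closely did not pass the test. On the Ly6d side these were Lynx1 (log2 fold change 0.13, edgeR adjusted p = 0.679), Them6 (0.22, 0.512) and Jrk (-0.17, 0.780). On the Ly6g side they were Gpihbp1, Zfp41 and Top1mt. Gpihbp1, the Ly6 protein of capillaries that carries lipoprotein lipase, had 15.2, 11.2 and 13.7 CPM in LNP-GFP and 5.62, 6.36 and 11.9 CPM in LNP-Gsdme, a log2 fold change of -0.74 (edgeR adjusted p = 0.147). Zfp41 and Top1mt had log2 fold changes of -0.14 and -0.13 (edgeR adjusted p = 0.725 and 0.712).

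**Figure D4:**
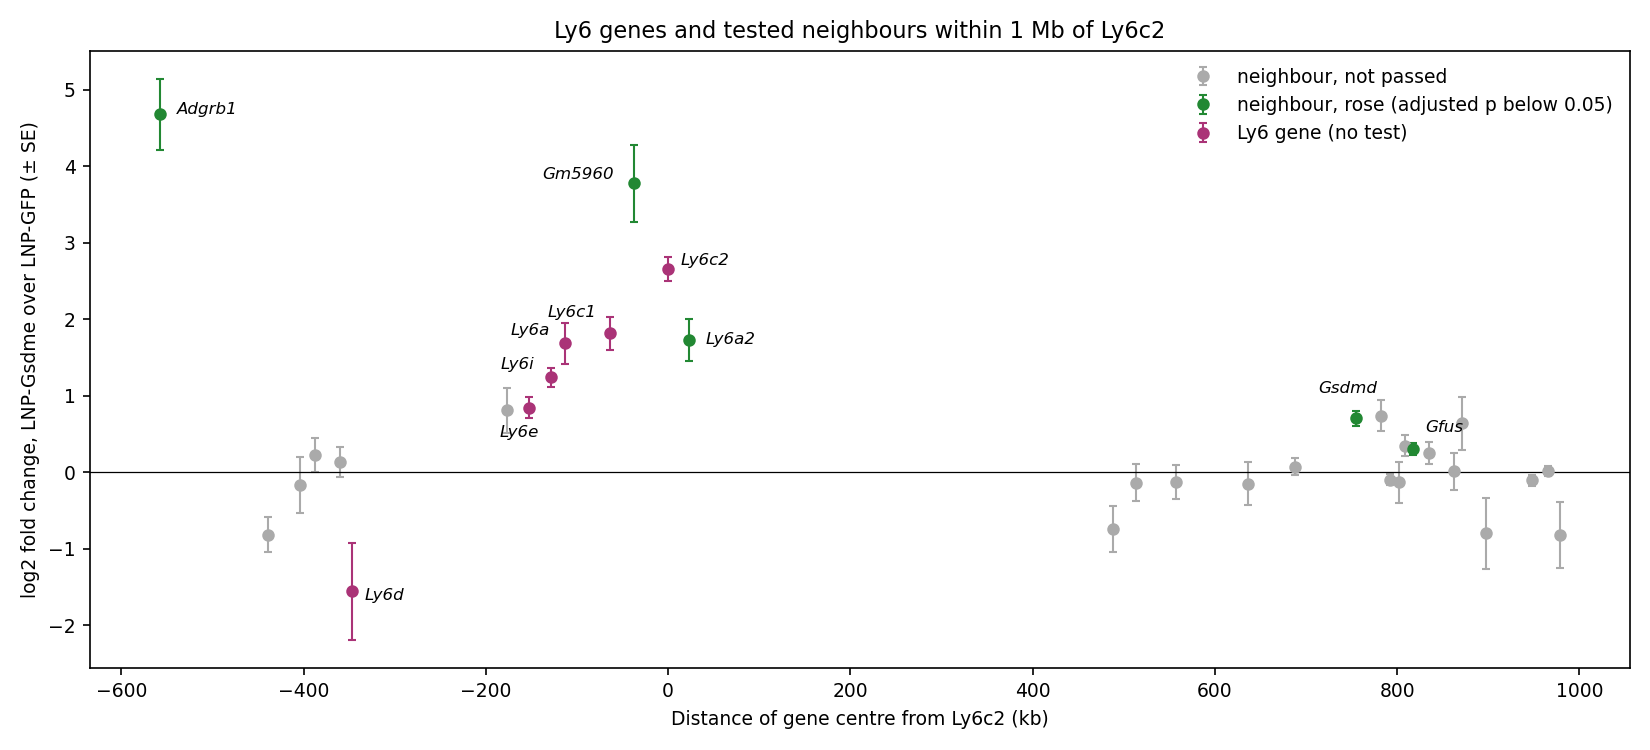
Log2 fold change of LNP-Gsdme over LNP-GFP with its SE (vertical axis) against distance of the gene centre from Ly6c2 in kb (horizontal axis), for 6 Ly6 genes (purple, no test) and the 26 tested neighbours within 1 Mb, with those that rose in green. The 5 Ly6 genes with higher levels lie side by side with Gm5960 and Ly6a2, while Ly6d, leftmost of the 6 Ly6 genes, is below 0.

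Members of the Ly6/uPAR family outside the 7 were mostly uncounted or too low to test. Of 40 family symbols in the table, 17 had no count in any library and 8 were tested. Of these 8, 1 rose and 1 fell, with a median log2 fold change of 0.13. By edgeR, 6.30% of all tested genes rose and 5.32% fell, and the same shares stand beside the edgeR list counts below. A difference from these shares was not tested. The gene that rose was Ly6a2, already counted among the neighbours. Cd177, a GPI-anchored neutrophil protein on chromosome 7, fell from 35.5, 50.2 and 44.9 CPM to 12.1, 14.0 and 9.43 CPM, with a log2 fold change of -1.88 ± 0.19 (SE; edgeR adjusted p = 0.00624). Plaur, the urokinase receptor and the most abundant of the family here, had 508 ± 37.5 CPM in LNP-GFP and 587 ± 24.2 CPM in LNP-Gsdme (SD, n = 3; edgeR adjusted p = 0.139). Ly6g5b (log2 fold change -0.35) and Cd59a (0.14), an inhibitor of complement, did not pass either.

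Genes for making and attaching the GPI anchor, on which Ly6 proteins depend, did not pass the test. Of 29 tested, none rose or fell with edgeR (unadjusted p below 0.05 for 6 higher and 1 lower; DESeq2 called 2 higher and 1 lower), with a median log2 fold change of 0.08. Interferon-stimulated genes, the group to which Ly6a and Ly6e are often assigned, rose in 19 of 39 tested, fell in none and did not pass in 20 (edgeR adjusted p below 0.05), with a median of 0.73. Without LNP-GFP 3, 7 of them rose. Ifi44 went from 11.2 ± 3.22 to 79.2 ± 9.40 CPM (SD, n = 3; edgeR adjusted p = 0.00440) and Irf7, a transcription factor of the interferon response, from 277 ± 43.2 to 792 ± 59.1 CPM (SD, n = 3; edgeR adjusted p = 0.00473). Itgam and Itgb2, which encode the chains of CD11b/CD18, did not pass with edgeR or DESeq2 (none at an unadjusted p below 0.05), with a median of -0.10 and summed levels of 1422 to 1752 CPM in LNP-GFP and 1208 to 1705 CPM in LNP-Gsdme.

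Other markers of Ly6C-high monocytes moved in both directions. Of 12 tested, 3 rose (among them Plac8 and Ms4a4c, with log2 fold changes of 0.89 and 1.26) and 3 fell (Vcan, Fn1 and Cd14, with -0.92, -1.95 and -0.69; edgeR adjusted p below 0.05). Their median log2 fold change was -0.33, and their summed level was 9031 to 10831 CPM in LNP-GFP and 6715 to 7630 CPM in LNP-Gsdme. Of 10 markers of Ly6C-low monocytes, Nr4a1 and Cebpb rose and Treml4 and Cd36 fell, with a median of 0.03. Of 11 macrophage markers, Mertk rose and Apoe and Fcrls fell, with a median of -0.14. Of 25 marker genes called over all cell type lists, 4 were called without LNP-GFP 3, among them Ms4a4c, Itgae and Bst2. Calls over all genes fell from 1008 higher and 851 lower to 64 and 24 without that library. They also fell to 107 and 46 without LNP-Gsdme 1, and to 119 and 68 without LNP-Gsdme 2. Called marker genes were not counted without these LNP-Gsdme libraries.

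Markers of other cells were present in these sorted libraries and are given because Ly6a, Ly6e and Ly6d are also expressed outside monocytes. The sum of 10 T cell markers in replicates 1 to 3 was 557, 193 and 371 CPM for LNP-GFP, against 603, 598 and 478 CPM for LNP-Gsdme. The sum of the NK cell markers was 178, 61.5 and 121 CPM and 239.5, 248 and 187 CPM. No T cell marker rose with edgeR (1 higher at an unadjusted p below 0.05; DESeq2 called none), with a median log2 fold change of 0.54. Of 8 tested NK cell markers, Gzma rose with edgeR, 5 were higher at an unadjusted p below 0.05 and DESeq2 called 3 higher, with a median of 1.04.

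The endothelial sum, which also bears on Ly6a, was 569, 461 and 498 CPM in LNP-GFP and 353, 364 and 456 CPM in LNP-Gsdme. Of its 12 markers, Vwf fell with edgeR, 6 were lower at an unadjusted p below 0.05 and DESeq2 called 4 lower. The T cell, NK cell and endothelial sums, like Ly6a, Ly6e and Ly6i, were highest in replicate 1 and lowest in replicate 2 of LNP-GFP. This order was not particular to them, as the macrophage, Ly6C-low monocyte, plasmacytoid, B cell and GPI anchor sums had it too. Such an order is a description only, since LNP-GFP 3 lies near the weighted mean of the other LNP-GFP libraries. Within LNP-Gsdme the T cell, NK cell and endothelial sums did not have the order of Ly6a or Ly6e. There the plasmacytoid sum had the order of Ly6e, and the NK cell, macrophage, B cell and GPI anchor sums had that of Ly6i. The part of lymphocytes and endothelial cells in the values of Ly6a, Ly6e and the other Ly6 genes, Ly6c1 and Ly6c2 included, was not tested. The fibroblast sum was 9133 to 10259.9 CPM in LNP-GFP and 2192 to 5676 CPM in LNP-Gsdme, with 5 of 11 markers falling with edgeR. At an unadjusted p below 0.05, 9 were lower, and DESeq2 called 9 lower. Their median log2 fold change was -1.46, and none was called without LNP-GFP 3. The melanoma sum was 657, 2531 and 1622 CPM in LNP-GFP and 418, 470.1 and 1027 CPM in LNP-Gsdme, and none of 9 markers passed with edgeR (unadjusted p below 0.05 for 2 lower; DESeq2 called 1). The keratinocyte sum was 11.9, 26.3 and 16.1 CPM and 11.6, 9.92 and 14.1 CPM, with Krt1 at 0 and 3 of 9 markers tested. Ly6d and the melanoma, keratinocyte and neutrophil sums were highest in replicate 2 and lowest in replicate 1 of LNP-GFP. That order was shared by the Ly6C-high monocyte, fibroblast, conventional dendritic cell, interferon-stimulated and Ly6/uPAR family sums. Within LNP-Gsdme none of these sums had the order of Ly6d. The part of other cell types in the Ly6d values was not tested. Of the remaining lists, 3 of 9 conventional dendritic cell markers fell with edgeR (Xcr1, Itgae and Cd209a), with a median log2 fold change of -0.69. At an unadjusted p below 0.05, 7 of the 9 were lower, and DESeq2 called 6 lower, with none higher in either. Bst2 rose and Siglech fell among 7 plasmacytoid markers, and none of 4 tested B cell markers passed.

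**Figure D5:**
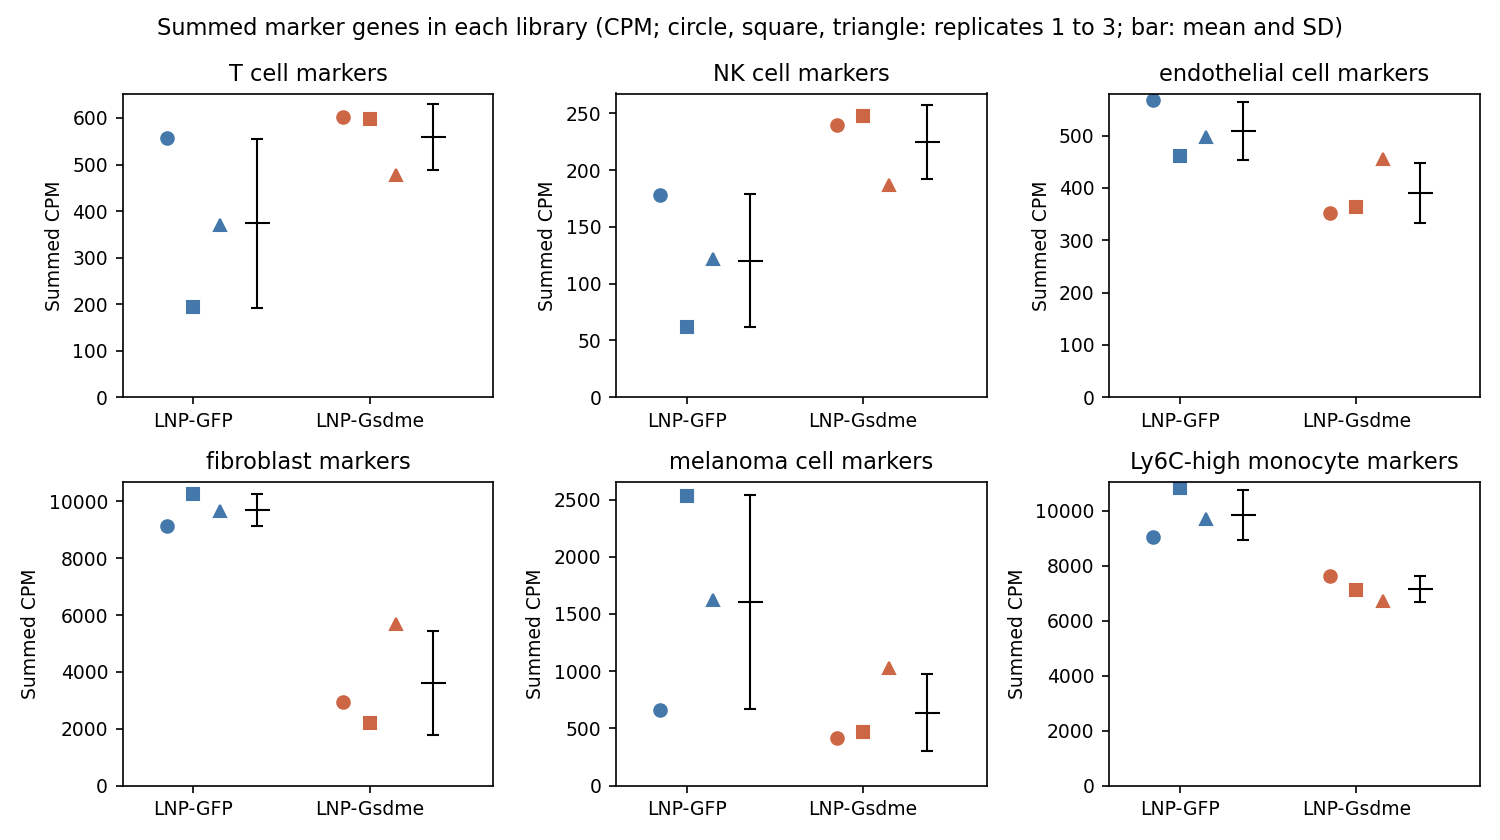
Summed CPM of 6 marker lists (vertical axis, linear from 0) in each LNP-GFP (blue) and LNP-Gsdme (orange) library, with marker shape giving the replicate and the bar the mean and SD of 3 libraries. The fibroblast and Ly6C-high monocyte sums are lower in all LNP-Gsdme libraries, and the T cell and melanoma sums vary several-fold within LNP-GFP.

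The 5 abundant Ly6 genes differed among themselves in their profiles over the 6 libraries. Distance was the root mean square difference between centred log2 CPM values, where 0 means the same profile. Each gene was centred over all 6 libraries, so the distance includes differences in fold change and partly restates them. Ly6e and Ly6i were the nearest pair at 0.235, followed by Ly6a and Ly6c1 at 0.253, while the copies Ly6c1 and Ly6c2 were 0.556 apart. Ly6d was 1.40 to 2.12 from each of the others. Among 11479 other genes, the nearest to Ly6c2 were Gm4951 (0.171), Tlr4 (0.176) and Slfn4 (0.218), and the nearest to Ly6c1 were Pira13 (0.180), A530064D06Rik (0.195) and Isg20 (0.205). Those nearest to Ly6a were Cd5l (0.175), Map10 (0.205) and Sfxn5 (0.207). Ly6i was nearest to Themis2 (0.0473), Gm8615 (0.0602) and Rnase6 (0.0893), and Ly6e to Dynll1 (0.0345), Gm7367 (0.0370) and Malat1 (0.0374). These distances describe 6 libraries and carry no test.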

How the data were processed

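RNA-seq of 6 sorted monocyte libraries was analysed (3 per group by the treatment label; replicate numbers from the titles). Per the labels' protocols, RNA was column-purified, treated with DNase and made into paired-end TruSeq libraries. The authors deposited raw counts and FPKM for 56980 genes with positions in 1 table, per the file headers, on build GRCm39 (from the submitters' processing notes). The aligner, counter, annotation, strand setting and treatment of shared reads were not given in the sources used here.

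Counts were fitted with edgeR 4.0.16 in R 4.3.3 (filterByExpr by group, 16010 genes; TMM; robust quasi-likelihood test; Benjamini-Hochberg; called at 0.05; biological coefficient of variation 0.193) and tested on simulated data. The deposited FPKM values served for levels and, as alternatives, for fold changes and the Ly6c2 share, not for tests. The main fit did not pair libraries by replicate number (correlations of deviations between same-numbered libraries 0.214, -0.237 and 0.0315). Alternatives were DESeq2 1.42.0, limma-voom (limma 3.58.1), other normalizations and filters, other windows, summed copies, a replicate block and each library left out.

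The genes and lists (family, GPI anchor, interferon-stimulated, sort gate and 13 cell type markers) were chosen with earlier results of these data known. The rule named the 7 genes; called neighbours up to 12 and the 3 nearest tested on either side; tested family genes of at least 1 CPM; the 2 called list genes with the smallest p; and the 3 nearest profiles. Called members of monocyte, macrophage, dendritic and NK lists were named after their values were seen, and values of some single list members are left out. GENCODE M21 (another build) gave exon and transcript lengths and transcript sequences, matched by Ensembl gene ID, and no gene positions. The RefSeq start regions were matched by symbol.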

Additional observations from a re-analysis of the deposited data

How the results depend on the processing

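With 3 libraries per group, counts of calls moved far more than fold changes, and genes near the filter carry large counting error. All genes called higher and lower numbered 1008 and 851. With DESeq2 they were 1527 and 1493, and with each library left out in turn 64 to 1625 and 24 to 1216, fewest without LNP-GFP 3. Neighbours called higher (5) became 2 within 500 kb and 1 to 7 with a library left out. Neighbours called lower (0) became 1 with DESeq2, 1 within 2 Mb and 0 to 1 with a library left out. Family genes called higher (1) became 0 to 1 and those called lower (1) became 1 to 2 with a library left out. With the replicate block, 103 genes were called higher and 52 lower, with 2 neighbours (Adgrb1 and Gm5960, so not Ly6a2, Gsdmd or Gfus) and 0 family genes higher; the log2 fold changes in that fit were 2.65 for Ly6c2 and 0.86 for Ly6e. LNP-GFP 1 correlated best with LNP-Gsdme 1, while LNP-GFP 2 and 3 correlated best with LNP-Gsdme 3 and 2. With 3 libraries per group, these correlations cannot tell whether equal numbers mark a pair. The log2 fold change of Ly6c1 moved to 2.55 when summed with Ly6c2, through the larger counts of Ly6c2. The log2 fold changes of the 6 fitted Ly6 genes kept their direction under all alternatives run. With a library left out they spanned 0.73 to 1.005 for Ly6e, 1.15 to 1.35 for Ly6i and -1.95 to -0.98 for Ly6d, and the share difference 4.26 to 7.65 percentage points. Taken from deposited FPKM, the Ly6c2 share was 80.4 ± 2.11% in LNP-GFP and 87.7 ± 4.22% in LNP-Gsdme (SD, n = 3). Apart from the construction named for the summed genes, the cause was not tested.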
